A study of Homo sapiens with 12 samples.

Results

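The E2F and RB family was followed in MDA-MB-231 cells, an established human triple-negative breast cancer line, after treatment with 3 compounds. Its members were taken by gene symbol from the comparison tables of each compound against the control: E2F1, E2F2, E2F3, E2F4, E2F5, E2F6, E2F7, E2F8, RB1 and RBL1. All 10 genes were present in all 3 tables, which together held 27146 genes. RNA was sequenced from 12 libraries, 3 in each of 4 groups. The control group, Ctrl, received only DMSO, the solvent, and the other groups received SAHA, compound 1 or a6 at 2.5 µM for 48 h. SAHA, also called vorinostat, is a hydroxamic acid that blocks histone deacetylases (HDACs) of the zinc-dependent classes. By the labels, SAHA and compound 1 have a single target each, while a6 has a pair of targets, HDACs and the G-quadruplex (G4), a folded form of guanine-rich DNA or RNA. The labels call the 3 libraries of a group biological replicates and do not say whether they came from separate cultures, so each p-value below reflects only how far these libraries scatter, which may in part be technical. All 4 groups are one cell line, and no genotype differed between them.

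E2F proteins are transcription factors that bind DNA, mostly as pairs with a DP protein, and switch genes for DNA synthesis and division on or off. E2F1, E2F2 and E2F3 are the activators. E2F4 and E2F5 act mainly as repressors together with pocket proteins, E2F6 represses with Polycomb proteins without binding a pocket protein, and E2F7 and E2F8 repress without a DP partner. RB1 and RBL1 (p107) are pocket proteins that hold E2Fs inactive until cyclin-dependent kinases phosphorylate them. HDAC inhibitors are known to raise CDKN1A, an inhibitor of those kinases, and to stop many cell lines in G1.

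The activators and RBL1 are themselves known E2F-regulated genes, so their promoters are shown here, with E2F4 beside them as a member without an E2F word. The sequences are the 100 bases before the RefSeq start site on the gene's strand (assembly GRCh38.p14), 5′ to 3′, and capitals mark a match to an E2F word on either strand. The words searched were TTTCCCG, the word TTTCGCG, then TTTGCCG and lastly TTTGGCG.
E2F1, chr20:33686386-33686485, minus strand: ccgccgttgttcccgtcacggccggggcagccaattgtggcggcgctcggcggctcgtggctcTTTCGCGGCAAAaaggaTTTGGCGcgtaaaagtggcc
E2F2, chr1:23531234-23531333, minus strand: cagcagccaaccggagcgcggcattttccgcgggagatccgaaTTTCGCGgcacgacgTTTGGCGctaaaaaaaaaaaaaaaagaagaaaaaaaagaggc
E2F3, first start, chr6:20401779-20401878, plus strand: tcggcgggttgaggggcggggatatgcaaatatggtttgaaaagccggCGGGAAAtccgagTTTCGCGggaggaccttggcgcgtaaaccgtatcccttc
RBL1, chr20:37095998-37096097, minus strand: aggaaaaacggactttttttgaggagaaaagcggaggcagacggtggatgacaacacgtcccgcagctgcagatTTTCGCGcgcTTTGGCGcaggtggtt
E2F4, chr16:67192055-67192154, plus strand: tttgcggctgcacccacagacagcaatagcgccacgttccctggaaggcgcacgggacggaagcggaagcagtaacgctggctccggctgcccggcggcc

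E2F1 held 3 such words in the 250 bases before its start, of which 2 overlap and appear above as 1 run of capitals. E2F2, the first start of E2F3 and RBL1 held 2 words each, all within 60 bases of the start. E2F6 held 2 words farther out, beginning 183 and 78 bases before its start. No word was found in these windows of E2F4, E2F7 or the second start of E2F3, which lies 1708 bases from the annotated 5′ end of the gene. Of 35116 RefSeq promoters of the same length, 7.33% held at least 1 word and 0.496% held 2 or more, overlaps included. To hold 2 or more words, as E2F1, E2F2, the first start of E2F3, E2F6 and RBL1 did, is thus a feature of few promoters. A match is a description of letters, not evidence of binding. The word CCAAT, which the factor NF-Y recognises, occurred 3 times in E2F1, 4 times at the first start of E2F3 and 4 times in E2F7, against at least once in 32.0% of all promoters. The CHR word TTTGAA, known from cell-cycle promoters bound by the DREAM complex, occurred in the first start of E2F3 and in 13.3% of all promoters. A G4 pattern (4 runs of at least 3 G with loops of 1 to 7 bases, either strand) was found in E2F2 and at the second start of E2F3, and in 23.5% of all promoters.

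**Figure D1:**
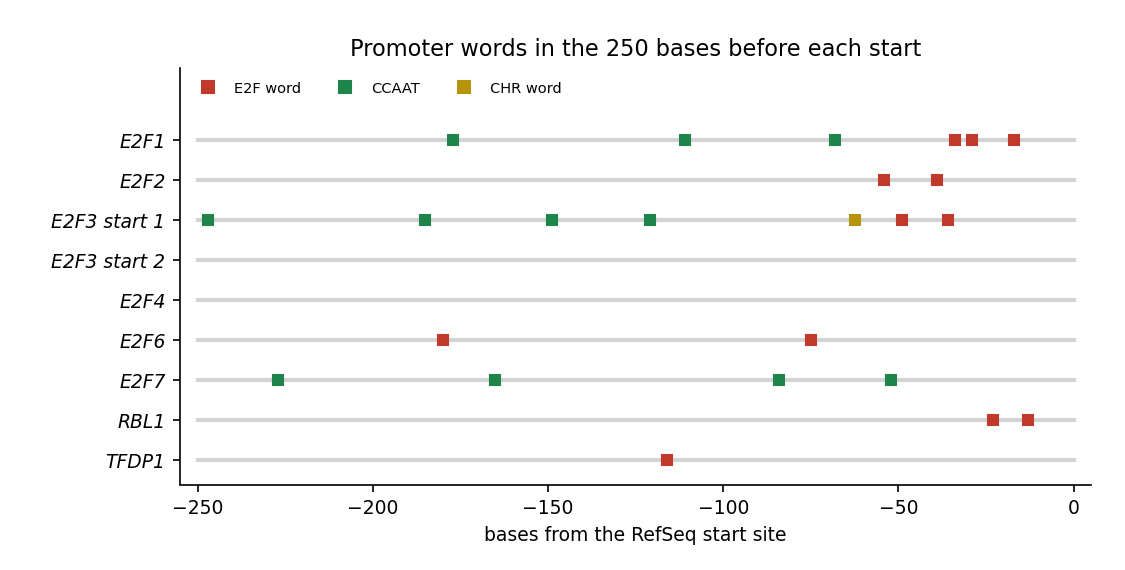
E2F, CCAAT and CHR words (squares, at their centres) in the 250 bases before each RefSeq start site, with the distance from the start in bases on the horizontal axis and one grey line for each promoter. The E2F words of E2F1, E2F2, the first start of E2F3 and RBL1 lie within 60 bases of the start, and those of E2F6 lie farther upstream.

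The 10 genes were annotated as protein-coding on GRCh38 (GENCODE release 29). E2F1 (ENSG00000101412) lies on chromosome 20 at 33675683-33686404 and RBL1 (ENSG00000080839) on the same chromosome at 36996349-37095995, both on the minus strand. E2F2 (ENSG00000007968) lies at chr1:23506430-23531220 on the minus strand and E2F3 (ENSG00000112242) at chr6:20401906-20493715 on the plus strand. E2F4 (ENSG00000205250) lies at chr16:67192169-67198918 and E2F5 (ENSG00000133740) at chr8:85177225-85217158, both on the plus strand. E2F6 (ENSG00000169016) lies at chr2:11444375-11466177, E2F7 (ENSG00000165891) at chr12:77021247-77065580 and E2F8 (ENSG00000129173) at chr11:19224063-19241620, all on the minus strand. RB1 (ENSG00000139687) lies at chr13:48303726-48599436 on the plus strand. Exons of a gene on the opposite strand cover 16.3% of the exon bases of E2F5 (C8orf59) and 3.54% of those of RBL1 (AL136172.1). The strand setting of the counting is not given, so the levels of E2F5 and, to a smaller extent, RBL1 are uncertain.

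Several facts of the whole series bear on these values. The deposited tables give, for each gene, a mean normalized read count over the 6 libraries compared and no value per library, so the spread is known only through the standard errors (SE) of the authors' DESeq2 fits, and the depth of each library is unknown. Group means were computed from that mean and the fold change, and neither the single libraries nor an overlap of groups can be shown. All 5 markers expected in MDA-MB-231 (VIM, CD44, AXL, CAV1 and ANXA1) were present, with Ctrl levels from 2852 to 21149 mean normalized counts in the SAHA table. The receptors ESR1 and PGR, which the line should lack, were listed only in the compound 1 table, at Ctrl levels of 0.660 and 0.337. ERBB2, EPCAM and KRT8, from the list of genes expected to be low or absent, were present at Ctrl levels of 2103, 172 and 17305, so these genes went against that list. Of 8 markers of other cell types, PTPRC, CD3E, DCN and ALB were in none of the tables, and COL1A1 was at a Ctrl level of 192. Of the 13 mitochondrially encoded mRNAs, 10 lay above Ctrl with SAHA, 0 with compound 1 (median log2 change -0.23) and 5 with a6. None of the markers or mitochondrial mRNAs passed an adjusted p of 0.05 (DESeq2), and 2, 0 and 2 were under an unadjusted p of 0.05 with SAHA, compound 1 and a6. The shares of all genes under that unadjusted p were 18.4%, 0.199% and 7.41%. The part of the mitochondrial shift in the compound 1 values was not tested.

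In cells given only DMSO the members spanned a wide range of levels. Per kilobase of the principal transcript, E2F1 was highest at 1050 mean normalized counts per kb in Ctrl, and E2F4, the main repressor partner of the pocket proteins, followed at 668. E2F5 stood at 220, E2F7 at 141 and E2F3 at 103 mean normalized counts per kb. RB1 stood at 65.7, E2F6 at 59.0, E2F8 at 53.1, RBL1 at 40.4 and E2F2, the lowest, at 29.6 mean normalized counts per kb. E2F1 was thus 35.5 times as high as E2F2 on this scale. The order was the same in the Ctrl levels computed from each of the 3 tables, which share the same Ctrl libraries. The gaps from E2F1 to E2F4, from E2F4 to E2F5 and from E2F5 to E2F7 exceeded an approximate 95% interval of the gap. That interval was built from the levels and SE of the SAHA comparison only. No other pair of neighbours in the order was separated. With the union of all annotated exons as length, E2F5 stood at 64.2 per kb and in the fifth place, behind E2F7 (128) and E2F3 (94.3), so its place depends on the length used. Among the partners, TFDP1 (DP1), the most used DP protein, was at 879 mean normalized counts per kb, TFDP2 at 247 and RBL2 (p130), the other pocket protein, at 62.6.

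**Figure D2:**
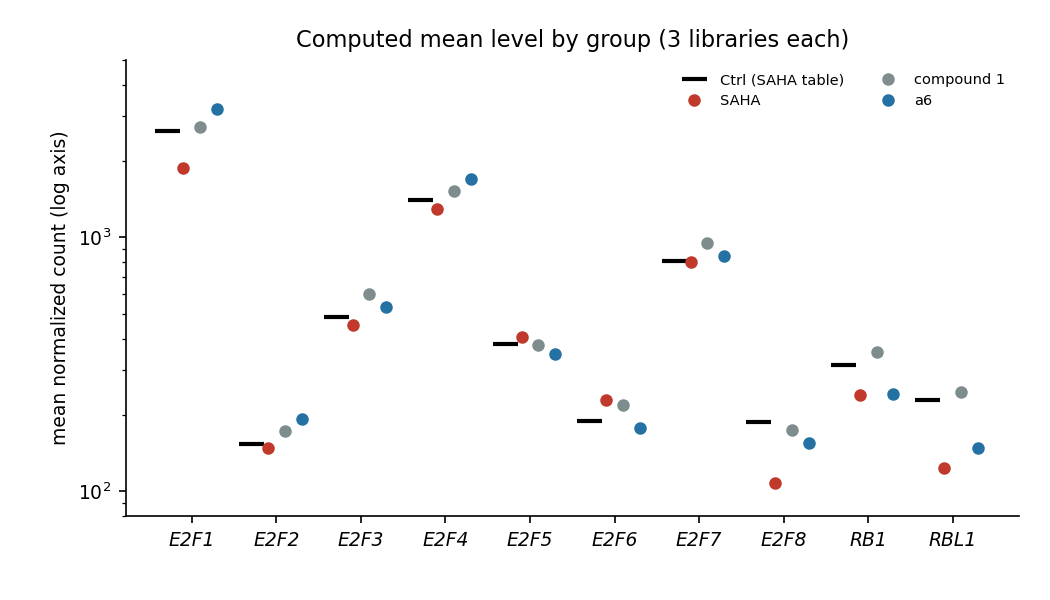
Mean normalized count of each member in Ctrl (black bar, from the SAHA table) and with SAHA, compound 1 and a6 (points), each a mean of 3 libraries computed from the authors' deposited tables, on a log axis and not divided by gene length. E2F1 and E2F4 are the highest in each group, and the points for SAHA lie farthest below the Ctrl bar in RBL1 and E2F8.

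With SAHA, no member passed the authors' DESeq2 test at an adjusted p of 0.05, against 7.55% of 18534 genes tested in that comparison. E2F8, at an unadjusted p of 0.0368, was the only member under an unadjusted p of 0.05, which 18.4% of all genes reached, 8.27% as lower values. In the authors' deposited table, 8 of the 10 log2 changes lay below 0, with a median of -0.11 beside -0.01 over all genes; with the GC trend removed, E2F2 and E2F4 were no longer below 0. A lower level in these bulk libraries could be fewer cells that transcribe the gene or less RNA per cell, which cannot be told apart.

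Among the activators, E2F1 was at 2628 mean normalized counts in Ctrl and 1884 with SAHA in the authors' deposited table. Its log2 change was -0.48 (SE 0.28, 95% interval -1.03 to 0.07, DESeq2 adjusted p = 0.371), so its interval reached from about a 2-fold drop to no change; with the trend of fold change on transcript GC content removed, the log2 change was -0.25. E2F2 was at 153 in Ctrl and 149 with SAHA (log2 change -0.05, SE 0.42), per the authors' deposited table. E2F3 was at 487 and 452 (log2 change -0.11, SE 0.38) in the authors' deposited table. Of these activators, E2F1 had the lowest log2 change, and the smaller counts of E2F2 came with the widest interval, -0.87 to 0.78.

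Among the repressors, E2F4 was at 1400 mean normalized counts in Ctrl and 1295 with SAHA (log2 change -0.11, SE 0.29) in the authors' deposited table. The same table, the authors' deposited table for SAHA, gave E2F5 at 381 and 406 (log2 change 0.09, SE 0.28) and E2F6 at 190 and 229 (log2 change 0.27, SE 0.34). E2F5 and E2F6 were the only members above 0 with SAHA. Of the atypical repressors, E2F7 was at 809 in Ctrl and 801 with SAHA (log2 change -0.01, SE 0.34) in the authors' deposited table. E2F8 was at 187 and 108 (log2 change -0.80, SE 0.38, 95% interval -1.54 to -0.05, DESeq2 adjusted p = 0.228) in the authors' deposited table. E2F7 thus lay next to Ctrl and E2F8 had the second lowest log2 change of the family; the difference between the genes was not tested.

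Of the pocket proteins, RB1 was at 315 mean normalized counts in Ctrl and 241 with SAHA (log2 change -0.39, SE 0.44, 95% interval -1.25 to 0.48) in the authors' deposited table. RBL1 was at 230 and 124, the lowest log2 change of the family at -0.89 (SE 0.48, 95% interval -1.83 to 0.05, DESeq2 adjusted p = 0.312), per the authors' deposited table. RBL1 also had the largest SE of the members, so the lowest fold did not come with the lowest p. The test could have called a log2 change of 0.80 for E2F5, the member with the smallest SE, and of 1.39 for RBL1, so changes under about these sizes were not detectable. For 6 of the 10 members the 95% interval lay wholly within a 2-fold change in either direction.

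With compound 1, no member passed the adjusted p of 0.05, and 0.0% of 27126 genes tested did. At an unadjusted p of 0.05 there were 0 members, against 0.199% of all genes. The authors' deposited table gave 8 of the 10 members above 0, with a median log2 change of 0.14 beside 0.01 over all genes. E2F3 had the highest value, 488 in Ctrl and 600 with compound 1 (log2 change 0.30, SE 0.43), and E2F8 the lowest, 187 and 174 (log2 change -0.10, SE 0.38), per the authors' deposited table. E2F1 was at 2625 and 2725 (log2 change 0.05, SE 0.20, 95% interval -0.34 to 0.44) and E2F4 at 1398 and 1520 (log2 change 0.12, SE 0.17, 95% interval -0.21 to 0.46) in the authors' deposited table. E2F1 and E2F4, the most abundant members, were therefore held within narrow intervals around Ctrl. The atypical E2F7 was at 810 and 949 (log2 change 0.23, SE 0.22), with the lowest unadjusted p of the family in the authors' deposited table for compound 1, 0.308. The authors' deposited table put E2F2 at 153 and 172 (0.17, SE 0.53), E2F5 at 380 and 377 (-0.01, SE 0.26) and E2F6 at 190 and 220 (0.21, SE 0.37), as mean normalized counts and log2 changes. RB1, at 316 and 356 (log2 change 0.17, SE 0.55), and RBL1, at 231 and 246 (log2 change 0.09, SE 0.65, 95% interval -1.19 to 1.37), were the least certain in the authors' deposited table. With 0 genes called in the whole table, a member would have needed a log2 change of 0.82 (E2F4) to 3.11 (RBL1) to be called alone.

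With a6, no member passed the adjusted p of 0.05, against 0.583% of 15255 genes tested, and 0 members were under an unadjusted p of 0.05, which 7.41% of all genes reached. In the authors' deposited table, 5 members lay above 0 and 5 below, with a median log2 change of 0.01 beside -0.03 over all genes. All 3 activators lay above 0. E2F1 was at 2571 mean normalized counts in Ctrl and 3216 with a6 (log2 change 0.32, SE 0.23, 95% interval -0.12 to 0.77, DESeq2 adjusted p = 0.874) in the authors' deposited table. E2F2 had the highest log2 change of the family in the authors' deposited table for a6, 0.36 (SE 0.35; 150 in Ctrl and 193 with a6), and E2F3 was at 478 and 534 (log2 change 0.16, SE 0.33). E2F4 lay about as far above Ctrl, at 1370 in Ctrl and 1707 with a6 (log2 change 0.32, SE 0.23), per the authors' deposited table.

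The other repressors lay closer to Ctrl in the authors' deposited table for a6, with log2 changes of -0.10 for E2F5 (SE 0.24; 372 and 348), -0.07 for E2F6 (SE 0.32; 186 and 177) and 0.09 for E2F7 (SE 0.24; 792 and 844). E2F8 was at 183 and 155 (log2 change -0.24, SE 0.33) in the authors' deposited table. Both pocket proteins lay below 0 with a6. RB1 was at 309 and 242 (log2 change -0.36, SE 0.38, 95% interval -1.09 to 0.38) and RBL1 at 226 and 149 (log2 change -0.60, SE 0.44, 95% interval -1.47 to 0.26, DESeq2 adjusted p = 0.889), per the authors' deposited table. A called log2 change would have been at least 0.83 for E2F1 and 1.60 for RBL1 in this comparison. For 7 of the 10 members the 95% interval lay within a 2-fold change, as it did for 6 members with compound 1.

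**Figure D3:**
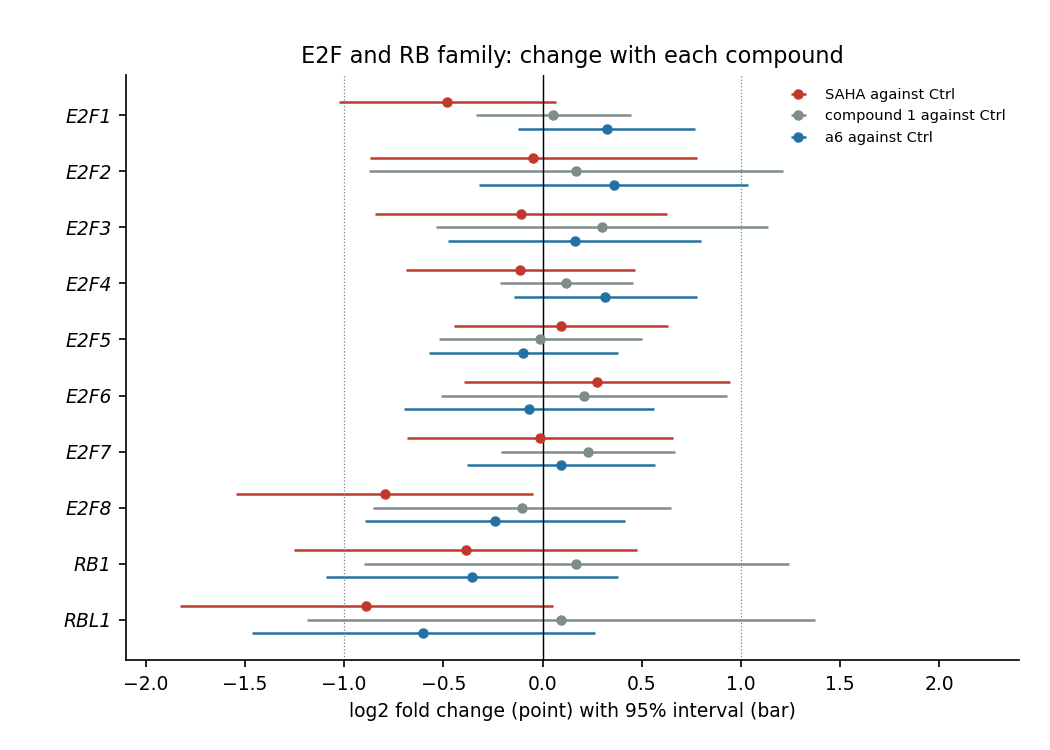
Log2 fold change of each member against Ctrl (points) with its 95% interval (bars), for SAHA, compound 1 and a6 (3 libraries a group), from the authors' deposited tables; dotted lines mark a 2-fold change. Only the SAHA interval of E2F8, -1.54 to -0.05, leaves out 0, and it did not pass the adjusted p of 0.05.

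The compounds were then compared with each other at the one dose and time used, as the difference of their log2 changes against the shared Ctrl, with a z test. This gave 30 comparisons, 10 members in each of 3 pairs of compounds. None passed an adjusted p of 0.05 over all genes of a pair, against 1.06% of 18514 genes for SAHA minus compound 1, 0.0328% of 15251 genes for a6 minus compound 1 and 0.256% of 15255 genes for a6 minus SAHA. The same count of 0 held when p was adjusted over all genes and all 3 pairs together. One of the 30 was under an unadjusted p of 0.05, a level that 7.26%, 1.46% and 5.56% of all genes reached in these pairs (2.65% as higher values for a6 minus SAHA).

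That one was E2F1 between a6 and SAHA. Its log2 changes against Ctrl, 0.32 with a6 and -0.48 with SAHA in the authors' deposited tables, lay on opposite sides of 0. The difference was 0.80 (SE 0.36, 95% interval 0.10 to 1.51, unadjusted p = 0.0258), with an adjusted p from the z test across all genes of 0.724, or 0.818 over all 3 pairs. With an error correlation of 0.5, as equal shared Ctrl libraries would give, the adjusted z-test p was 0.0506. Over all alternatives the difference ranged from 0.58 to 0.83. E2F1 between SAHA and compound 1 differed by -0.53 (SE 0.34, 95% interval -1.21 to 0.14), and between a6 and compound 1 by 0.27 (SE 0.30, 95% interval -0.32 to 0.86).

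For the other members the intervals of the differences were wide. E2F8 differed by -0.69 (SE 0.54) between SAHA and compound 1 and by 0.56 (SE 0.51) between a6 and SAHA. RBL1 differed by -0.98 (SE 0.81, 95% interval -2.57 to 0.61) between SAHA and compound 1, by -0.69 (SE 0.79) between a6 and compound 1, and by 0.29 (SE 0.65, 95% interval -0.99 to 1.56) between a6 and SAHA. RB1 had nearly the same value with a6 and SAHA, a difference of 0.03 (SE 0.58), but its interval of -1.10 to 1.17 leaves room for a 2-fold difference either way. E2F4 differed by 0.43 (SE 0.38, 95% interval -0.31 to 1.17) between a6 and SAHA. The narrowest interval of the 30 was that of E2F4 between a6 and compound 1, -0.37 to 0.77. These intervals do not show that the compounds acted alike on the members.

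**Figure D4:**
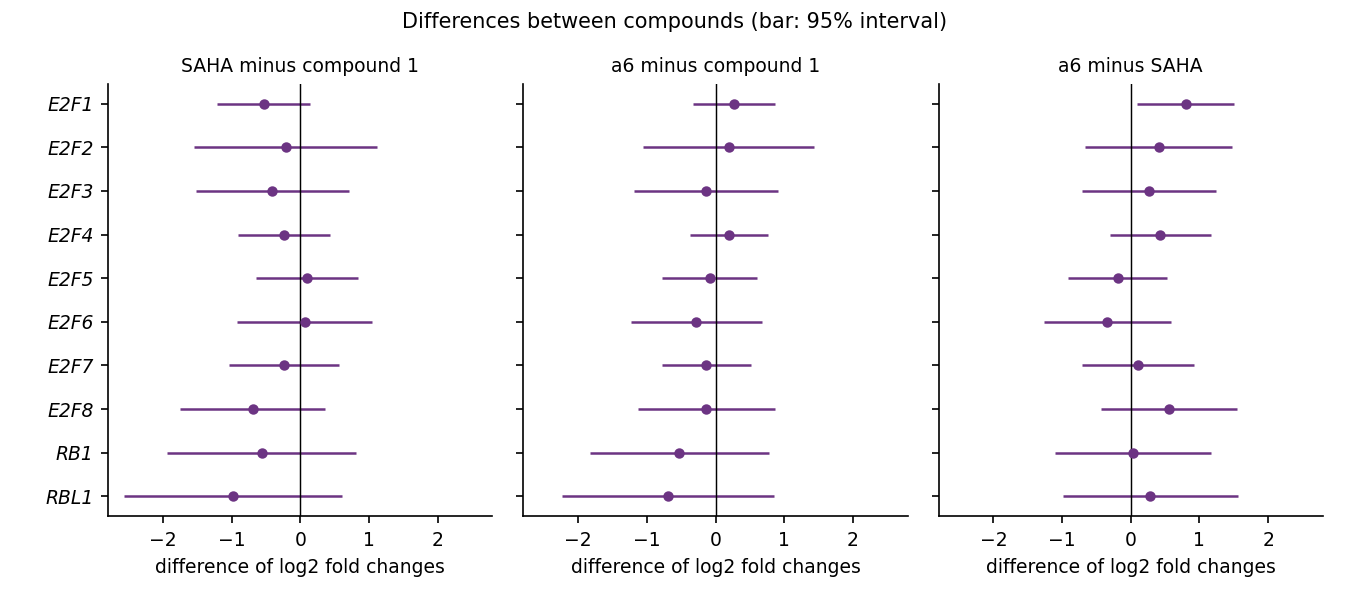
Difference between the log2 changes of 2 compounds for each member (points) with its 95% interval (bars), in 3 panels: SAHA minus compound 1, a6 minus compound 1 and a6 minus SAHA, each resting on 3 libraries a group and the shared Ctrl. The a6 minus SAHA interval of E2F1, 0.10 to 1.51, is the only one that leaves out 0.

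The partners of the E2Fs gave 1 called change. TFDP1, the DP protein that most E2Fs pair with, fell with SAHA from 2329 to 1342 mean normalized counts (log2 change -0.80, SE 0.27, DESeq2 adjusted p = 0.0434) in the authors' deposited table, where 3.02% of all genes fell. TFDP2 was at a log2 change of 0.44 (SE 0.29) and RBL2, the pocket protein of resting cells, at 0.04 (SE 0.36) with SAHA in the authors' deposited table. TFDP1 was at 0.06 (SE 0.31) with compound 1 and -0.05 (SE 0.23) with a6, per the authors' deposited tables. The log2 changes of TFDP1 differed between a6 and SAHA by 0.75 (SE 0.36, 95% interval 0.05 to 1.44, z-test adjusted p across all genes = 0.805). TFDP1's promoter held 1 E2F word, 119 bases before its start.

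Upstream of the pocket proteins stand the G1 cyclins, their kinases and the kinase inhibitors. Of 17 such genes, 15 were in the SAHA table, where 2 rose, 0 fell and the median log2 change was -0.33 beside -0.01 over all genes. CDKN1A (p21), which blocks the kinases that phosphorylate pocket proteins, rose with SAHA from 1929 to 4609 mean normalized counts (log2 change 1.26, SE 0.34, DESeq2 adjusted p = 0.00666) in the authors' deposited table, where 4.53% of all genes rose. The other was CCND2, a D-type cyclin, at a Ctrl level of only 0.376 and 22.2 with SAHA in the authors' deposited table, so its fitted log2 change of 5.88 (SE 1.40) rests on almost no control reads. CCND1 (cyclin D1) was at -0.06 (SE 0.28), CCNE1 (cyclin E1) at 0.42 (SE 0.30), CCNE2 at -0.17 (SE 0.63) and MYC, which drives E2F gene expression, at 0.27 (SE 0.34) on the log2 scale with SAHA in the authors' deposited table. CDKN2A and CDKN2B, further inhibitors of this step, are not analysed here.

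With compound 1 and a6, none of the G1 genes passed the test (15 and 14 measured), and the medians were 0.02 and 0.06. Under an unadjusted p of 0.05 were 0 and 3 of them, against 0.199% and 7.41% of all genes. CDKN1A was at a log2 change of 0.74 (SE 0.30, DESeq2 adjusted p = 0.436) with a6 and 0.29 (SE 0.50) with compound 1, per the authors' deposited tables. Another kinase inhibitor, CDKN1C, lay on the other side of 0 with a6, at -1.04 (SE 0.47, DESeq2 adjusted p = 0.555) in the authors' deposited table. CCNE1, itself an E2F target, was at 0.67 (SE 0.27, DESeq2 adjusted p = 0.402) with a6, the lowest p of this list there, and at 0.19 (SE 0.28) with compound 1 in the authors' deposited tables. CCND1 was at 0.43 (SE 0.27) and MYC at -0.33 (SE 0.30) on the log2 scale with a6 in the authors' deposited table. For CDKN1A the difference of log2 changes between a6 and SAHA was -0.52 (SE 0.46, 95% interval -1.42 to 0.38), which includes both no difference and a 2-fold one.

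The corepressors that pocket proteins bring to promoters include HDACs, the targets of SAHA. Of 12 such genes with SAHA, 2 fell (16.7%, beside 3.02% of all genes) and 0 rose. The median log2 change was -0.15 beside -0.01 over all genes. SUV39H1, a histone H3 lysine methyltransferase, fell by 1.24 on the log2 scale (SE 0.31, DESeq2 adjusted p = 0.00186) in the authors' deposited table. DNMT1, the maintenance DNA methyltransferase, fell by 0.86 (SE 0.27, DESeq2 adjusted p = 0.0226) in the same authors' deposited table, and did not pass with the GC trend removed (adjusted p = 0.0612). With compound 1 and a6 none of the 12 passed, beside 0.0% and 0.583% of all genes. Also, 0 were under an unadjusted p of 0.05, beside 0.199% and 7.41% of all genes. The genes with the lowest p there, per the authors' deposited tables, were SUV39H1 with compound 1 (log2 change -0.27, SE 0.22) and HDAC1 with a6 (0.38, SE 0.26). Of 8 Polycomb partners of E2F6, none passed with any compound. With SAHA, compound 1 and a6, 1, 0 and 0 were under an unadjusted p of 0.05, against 18.4%, 0.199% and 7.41% of all genes. RING1, a ubiquitin ligase subunit of the complex, had the lowest p with SAHA in the authors' deposited table (log2 change 0.68, SE 0.29, DESeq2 adjusted p = 0.147). Of the germline genes that E2F6 is known to silence, STAG3 was the one present in all 3 tables, at log2 changes of 0.15, -0.26 and -0.57 with SAHA, compound 1 and a6 in the authors' deposited tables, and its near-identical copies elsewhere in the genome make its counts uncertain.

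Among genes that E2Fs act on, SAHA gave called changes. Of 40 E2F targets of S phase, 10 fell with SAHA, 0 rose and 2 lay above 0, with a median log2 change of -0.61 beside -0.01 over all genes. The share that fell, 25.0%, stands beside 3.02% of all genes. TYMS, which makes the thymidine precursor of DNA, fell by 1.41 on the log2 scale (SE 0.25, DESeq2 adjusted p = 2.23e-06) in the authors' deposited table. The same authors' deposited table gave POLE, the catalytic subunit of a replicative polymerase, at a log2 change of -1.07 (SE 0.30, DESeq2 adjusted p = 0.00840), and CDC45, part of the replicative helicase, also at -1.07. The other 7 that fell were RRM2, CCNA2, CHAF1B, UHRF1, ASF1B, MCM7 and CDT1, at log2 changes from -1.05 (CCNA2, which activates the S phase kinases) to -0.85 (ASF1B, a histone chaperone) in the authors' deposited table. Once the GC trend was removed, 6 of the 40 fell.

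Of 16 mitosis genes known to be controlled through the DREAM complex, which holds E2F4, RBL1 or RBL2 and the MuvB proteins, 10 fell with SAHA and none lay above 0 (median log2 change -0.99). The share that fell, 62.5%, stands beside 3.02% of all genes. KIF20A, a kinesin of cytokinesis, fell by 1.74 on the log2 scale (SE 0.31) in the authors' deposited table. PLK1, a mitotic kinase, was at a log2 change of -1.33 and CCNB2, a mitotic cyclin, at -1.28 (SE 0.26, DESeq2 adjusted p = 7.58e-05) in the authors' deposited table. AURKB, CDC20, AURKA, CCNB1, CENPA, MKI67 and CENPE were the others that fell, at log2 changes from -1.75 (CENPE) to -0.89 (CENPA) in the authors' deposited table. Of 7 genes of MuvB and its activating partners, 2 fell (28.6%, beside 3.02% of all genes) and 0 rose (median -0.47). FOXM1, the factor that turns on mitosis genes, went from 2681 to 1047 mean normalized counts (log2 change -1.36, SE 0.27, DESeq2 adjusted p = 3.00e-05) and MYBL2 fell by 0.92 (SE 0.30, DESeq2 adjusted p = 0.0350), per the authors' deposited table; MYBL2 did not pass with the GC trend removed (adjusted p = 0.139). Of 5 E2F targets linked to apoptosis, TP73 alone fell, at a log2 change of -1.60 (SE 0.45, DESeq2 adjusted p = 0.00822) in the authors' deposited table, on a mean of fewer than 50 counts. That was 20% of this short list, beside 3.02% of all genes.

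With compound 1, none of the 40 S phase targets or 16 mitosis genes passed, 0 of either list were under an unadjusted p of 0.05, and 24 of the 40 lay above 0 (medians 0.05 and 0.02). Over all genes with compound 1, 0.0% passed and 0.199% were under an unadjusted p of 0.05. MCM2, a helicase subunit, had the lowest p of the S phase list (log2 change -0.21, SE 0.24) and PLK1 that of the mitosis list (-0.22, SE 0.19), per the authors' deposited table. With a6 none passed either (0 and 1 under an unadjusted p of 0.05), with medians of -0.01 and -0.14 and 16 of 40 and 6 of 16 genes above 0. Over all genes with a6, 0.583% passed and 7.41% were under an unadjusted p of 0.05. CENPE, a centromere motor, had the lowest p of the mitosis list with a6 (log2 change -1.15, SE 0.53, DESeq2 adjusted p = 0.571) and GINS3, a helicase subunit, that of the S phase list (0.59, SE 0.31), per the authors' deposited table. The lists of MuvB genes and apoptosis targets also had no call with either compound, adjusted or not, beside the same shares of all genes. Of the MuvB genes, LIN54 had the lowest p with compound 1 (log2 change 0.33, SE 0.51) and RBBP4 with a6 (-0.33, SE 0.25) in the authors' deposited tables. Of the apoptosis targets, TP73 had the lowest p with a6 (log2 change -0.79, SE 0.41) in the authors' deposited table.

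**Figure D5:**
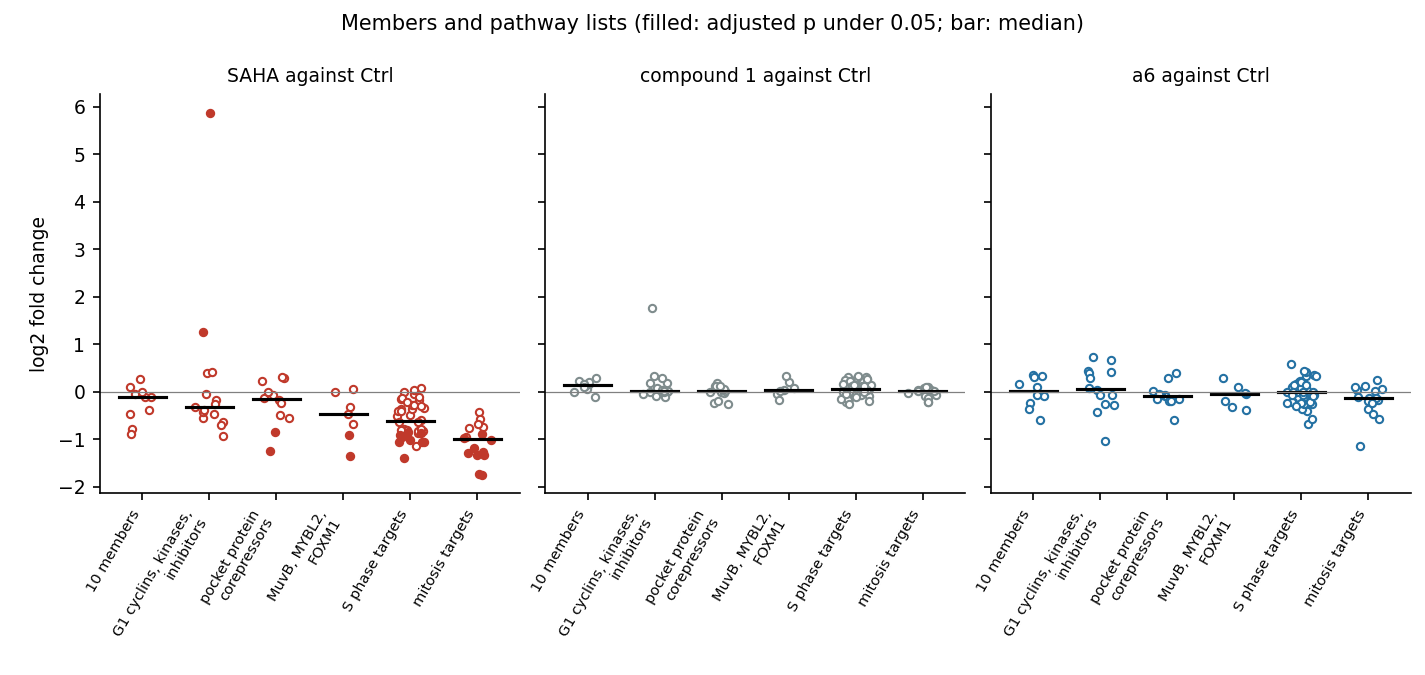
Log2 fold change against Ctrl of the members and of the genes in 5 pathway lists (points; filled where the authors' deposited adjusted p is under 0.05) with the median of each list (bar), in panels for SAHA, compound 1 and a6. With SAHA 10 of 40 S phase targets and 10 of 16 mitosis genes are filled, all below 0, while none of the 10 members is filled in any panel.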

How the data were processed

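RNA of 12 MDA-MB-231 libraries was sequenced by the authors. Per the submitters' processing notes, cutadapt, DESeq2 and GRCh38 (hg38) were used; for the versions, aligner, read counter and strand setting, nothing is given in the sources read. In the tables the authors deposited, the mean normalized count is a signal averaged over the 6 libraries compared. The fold change and its SE are log2 values, the Wald statistic is a score, and p-values come raw and adjusted, per the file headers. Lists of changed and G4-related genes, also deposited by the authors, were used for gene names only. Columns with values of single libraries: 0.

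The authors' DESeq2 adjusted p, under 0.05, is the main test. Group levels were computed from the mean and the fold change. Differences between compounds were tested with a two-sided z test (root of the summed squared standard errors, Benjamini-Hochberg over all genes in both tables), which the shared Ctrl makes conservative. The method was tested on simulated data drawn with the same standard errors, which cannot check those standard errors themselves. Lengths and GC content came from GENCODE 29, matched for 95.8%, 94.0% and 96.7% of genes, and promoters from RefSeq: 7 of the 10 members had one used here, while the entry listed for RB1 lies 172724 bases from its annotated 5′ end and was not used. Work was done in Python 3.11.15 with pandas 2.3.3, scipy 1.17.1 and statsmodels 0.14.6.

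Named genes were all members, TFDP1, TFDP2, RBL2, CCND1, CCNE1, CCNE2, CDKN1A and MYC, and in each list and comparison up to 3 rising and 3 falling genes with the smallest adjusted p, or the 1 with the smallest p where none passed. CDKN1C and the other genes that fell in the S phase and mitosis lists were named after their values were seen. Genes most like a member were to be named only for members that passed the test, and none did. The members, lists and tests were chosen with earlier results of these data known, and the lists come from general knowledge of the pathway. Results that need items withheld for evaluation are not reported here.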

Additional observations from a re-analysis of the deposited data

How the results depend on the processing

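No paired analysis was possible because the files hold no values per library, and for the same reason no library was left out in turn. The alternatives were a stricter adjusted p, a fold limit, the rule of unadjusted p under 0.05 with at least 2-fold, a minimum mean count, centring, removal of the trend on GC content and, for differences, an error correlation of 0.5. The exon-union length, centring and GC removal for lists, and GC removal for differences were chosen after seeing the data. Of 330 member values under alternatives, 328 kept direction and call, 0 became called, and 2 reversed when the GC trend was removed: E2F2 (0.0941) and E2F4 (0.0384) with SAHA. As no member was called to begin with, the stricter adjusted p and the adjusted p with a fold limit could change none of these values. Only centring and GC removal could reverse a direction, so the count of 328 does not measure how stable the values are. Removal of the GC trend gave E2F1 with SAHA -0.25. It also reversed, none of them called, RBL2 (-0.0429) and LIN54 (-0.00805) with SAHA, FOXM1 (0.0113), RBBP4 (-0.0512), DNMT1 (0.0609), POLE (0.0168) and CENPE (-0.00845) with compound 1, and DNMT1 (-0.00979) with a6. Under GC removal with SAHA, 838 genes were higher and 354 lower, against 839 and 560 as deposited; 1 MuvB gene, 1 corepressor and 6 S phase targets fell and 1 Polycomb partner, RING1, rose. MYBL2 was then at -0.74 (adjusted p = 0.139, DESeq2 values re-adjusted). At an adjusted p under 0.01 with SAHA, 0 partners (TFDP1 lost), 1 MuvB gene, 1 corepressor, 3 S phase targets and 7 mitosis genes (CENPE, MKI67 and CENPA lost) fell. With a mean count of at least 50, 1 G1 gene rose (CCND2 left out) and 0 apoptosis targets fell. TFDP1 with SAHA ranged from -0.85 to -0.79 and also lost its call under a 2-fold limit. The cause of these changes was not tested. SE near 0.3 at mean counts of 100 to 400 limit what could be called; the depth of each library is unknown.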

Other observations

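Some values on the E2F pathway lay outside the comparisons above. Between SAHA and compound 1, the difference of log2 changes was called for 4 pathway genes, all lower with SAHA: KIF20A (-1.60, SE 0.38, z-test adjusted p across all genes = 0.00681), TYMS (-1.35, SE 0.34, z-test adjusted p = 0.0142), CCNB2 (-1.24, SE 0.33, z-test adjusted p = 0.0205) and FOXM1 (-1.32, SE 0.35, z-test adjusted p = 0.0219). Of all 18514 genes, 1.06% were called between SAHA and compound 1. Between a6 and SAHA no pathway gene was called within that pair. There, 12 of 40 S phase targets and 9 of 16 mitosis genes were under an unadjusted p of 0.05, which 5.56% of all genes reached. The median differences of these lists were 0.63 and 1.00 beside 0.01 over all genes. FOXM1 came closest, with a difference of 1.31 (SE 0.35, 95% interval 0.64 to 1.99, z-test adjusted p across all genes = 0.0532, or 0.0395 when adjusted over all 3 pairs together). With an error correlation of 0.5 for the shared Ctrl libraries, an alternative chosen after seeing the data for these lists, 11 of the 40 S phase targets and 9 of the 16 mitosis genes were called between a6 and SAHA, against 3.54% of all genes, so these counts depend on how the shared Ctrl is treated.

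The deposited lists of changed genes held 1327 genes named as up and 609 as down with SAHA, 23 and 20 with compound 1, and 150 and 248 with a6, and the G4-related lists held 722 and 439, 7 and 11, and 74 and 326. No member was in any of them. The tables for SAHA, compound 1 and a6 held 18534, 27126 and 15255 genes, so most genes were outside these lists as well. The lists of changed genes do not follow the adjusted p of 0.05 used here, which 1399, 0 and 89 genes passed with SAHA, compound 1 and a6. The G4-related lists also hold genes outside the lists of changed genes, so a place in one does not show a change. The G4-related down list for SAHA held FOXM1, CCNA2, POLE, UHRF1, CENPE, MKI67 and TP73. The G4-related up list for SAHA held CCND2, CDKN1A, SMARCA2 and SMARCA4. All of these except SMARCA2 and SMARCA4 were also in the authors' lists of changed genes. SMARCA4, though in the up list, was at a log2 change of -0.48 (DESeq2 adjusted p = 0.335) with SAHA in the authors' deposited table, and SMARCA2 was next to 0. The G4-related down list for a6 held CDKN1C, CENPE and HDAC3. CDKN1C (log2 change -1.04, SE 0.47) and CENPE (-1.15, SE 0.53) were also in the authors' list of changed genes as lower with a6. HDAC3, at -0.10 (SE 0.22) in the authors' deposited table, was not in that list. None of CDKN1C, CENPE and HDAC3 passed an adjusted p of 0.05 with a6.

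E2F words were found in the promoters of 18 of 35 S phase targets with a RefSeq promoter (51.4%), against 8.86% of 27305 genes, and in 3 of 14 mitosis genes (21.4%). The CHR word was found in 9 of these 14 mitosis genes. It occurred in 13.3% of 35116 promoters, a share counted by promoter and not by gene.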
